A study of Mus musculus with 2 samples.

Results

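Polycomb group genes encode the subunits of the PRC1 and PRC2 complexes, and 9 of them were followed here: Ezh1, Ezh2, Suz12, Eed, Rbbp4, Rbbp7 and Jarid2 of PRC2, and Cbx2 and Bmi1 of PRC1. They were taken by symbol from the 46095 genes of the count table, and all 9 were found and tested. RNA was sequenced from C3H10 cells, a mouse embryonic mesenchymal line that can be turned into adipocytes; the labels give the strain as C57BL/6, although the line is known to come from C3H mice. One library (n = 1) came from cells transfected with an antisense oligonucleotide (ASO) against MALAT1 and one (n = 1) from cells transfected with the negative control (NC) ASO, each at 100 nM before the same adipogenic induction, and the RNA was taken at differentiation day 6. Which ASO against MALAT1 was sequenced is not given in the sources used here, and both libraries share the transfection and the induction mixture of isobutyl-1-methylxanthine, dexamethasone, troglitazone and insulin. The comparison asks how the cells' RNA differs when MALAT1 is low.

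PRC2 places methyl groups on a lysine of histone H3 and so keeps developmental genes silent. EZH1 or EZH2 is its catalytic subunit, SUZ12 and EED hold the complex together and stimulate it, RBBP4 and RBBP7 bind histones, and JARID2 guides the complex to chromatin. PRC1 reads that mark through a CBX protein and attaches ubiquitin to histone H2A. In dividing precursor cells EZH2 is usually the main enzyme, while EZH1 is kept in cells that have stopped dividing, and EZH2 is known to silence Wnt genes in preadipocytes. The MALAT1 transcript has been described as a partner of EZH2.

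The promoters of the catalytic subunits are printed because these genes differed in opposite directions between the libraries, and that of Suz12 because it shares a motif with Ezh2. The sequences are from RefSeq (GRCm38.p6) and run from 250 bases before to 30 bases after the annotated start. Ezh2 lies on the minus strand at chr6:47595001-47595280, Ezh1 on the minus strand at chr11:101226434-101226713 and Suz12 on the plus strand at chr11:79992856-79993135. Capitals mark the E2F-type words TTTCCCGC, TTTCGCGC, TTTGCCGC and TTTGGCGC and the word CCAAT, each searched on both strands, so that ATTGG is CCAAT on the other strand; no match of one overlaps a match of the other here.
Ezh2: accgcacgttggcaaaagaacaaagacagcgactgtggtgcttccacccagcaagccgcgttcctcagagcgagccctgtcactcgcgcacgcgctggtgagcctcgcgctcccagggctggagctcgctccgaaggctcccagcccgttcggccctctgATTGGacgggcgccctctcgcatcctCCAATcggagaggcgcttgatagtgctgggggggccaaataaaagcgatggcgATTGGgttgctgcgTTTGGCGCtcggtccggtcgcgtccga
Ezh1: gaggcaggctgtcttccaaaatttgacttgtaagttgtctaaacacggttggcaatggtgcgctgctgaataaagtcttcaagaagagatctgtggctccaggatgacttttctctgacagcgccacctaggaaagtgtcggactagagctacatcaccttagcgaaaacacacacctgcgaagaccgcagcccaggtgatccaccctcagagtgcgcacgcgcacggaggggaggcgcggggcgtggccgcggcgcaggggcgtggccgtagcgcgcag
Suz12: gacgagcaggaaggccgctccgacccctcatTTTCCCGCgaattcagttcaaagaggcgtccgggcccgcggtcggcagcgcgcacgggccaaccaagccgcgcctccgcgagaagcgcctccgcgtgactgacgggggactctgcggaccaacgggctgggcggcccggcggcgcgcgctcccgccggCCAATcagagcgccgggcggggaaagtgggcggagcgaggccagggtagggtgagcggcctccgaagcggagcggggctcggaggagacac

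Ezh2 held 1 E2F-type word, which began at base 4 from the RefSeq start, and 3 CCAAT words. In GENCODE M21 the Ezh2 gene reaches 47595341, past the whole printed stretch, so these positions hold for the RefSeq start only. Suz12 held 1 of each, with the E2F-type word beginning at -219 from the start. The Ezh1 promoter held neither. Of the 8 members with a promoter in the RefSeq table, 2 held an E2F-type word (Ezh2 and Suz12). CCAAT was held by 6: Ezh2, Suz12, Eed, Rbbp4, Rbbp7 and Jarid2, of which Jarid2 was lower in MALAT1-knockdown cells. Both were counted per gene in the table's full windows, which reach 50 bases past the start. Over all 27025 genes in the table, 2.6% and 41.1% held them in any promoter, and of all 32851 promoters 2.26% and 37.4% held them. The same search found an E2F-type word in 8 of 22 proliferation genes and CCAAT in 19 of them, a list chosen with earlier results of these data known. A matching word is not a measured binding site, and a link of these words to the differences between the libraries was not tested.

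The targeted transcript was lower in the library labelled as its knockdown. Malat1 had 170402 counts (2953 CPM) in control cells against 45396 counts (731 CPM) in MALAT1-knockdown cells, which is 24.7% of the control level. The libraries held 58147539 and 61653549 counts. CPM values are counts scaled to the library size after TMM normalisation, and a log2 change is the log2 of the MALAT1-knockdown level over the control level. Each group is 1 library, so no difference below has a replicate check: tests compare these libraries and not the conditions, and intervals cover counting error only. Cultures may vary by more than that error, and a lower level in such bulk RNA can mean fewer cells of a type or less RNA per cell, which cannot be told apart. Markers of other cells moved beside the results that follow. All 16 adipocyte markers were lower in MALAT1-knockdown cells, their sum being 10177 CPM in control cells and 4338 CPM in MALAT1-knockdown cells, and the 26 proliferation genes were all higher, with sums of 1627 and 2455 CPM. The 10 preadipocyte markers summed to 7124 and 7623 CPM, mostly Col1a1 and Col3a1, with Dlk1 at 0 counts in both libraries. Among them Dcn and Lum were called lower (log2 changes of -0.88 and -0.99) and Cd34 and Thy1 higher (1.73 and 0.49) at a threshold of 25% higher or 20% lower. Of 14 markers of other cell types, 6 (Ptprc, Adgre1, Epcam, Myod1, Myog and Acan) were at 0 counts in both libraries, and the list's sum was 150 and 202 CPM, led by Sox9. The part of these shifts in the Polycomb differences was not tested.

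The Polycomb members differed little between the libraries, as did most genes of their level, and only Ezh2 passed 25% higher or 20% lower. A gene was called when the exact binomial test, adjusted by Benjamini-Hochberg over 17356 genes, gave a value under 0.05 and the change reached a set fold. At 2-fold, 0 of the 9 members were called, while 2.18% of all genes tested were called higher and 4.09% lower. At the lower threshold of 25% higher or 20% lower (0.32 on the log2 scale, called the 25% threshold here), 1 member was called higher and 0 lower, against 8.84% of all genes higher and 12.0% lower. Among the 8251 genes with a mean of at least 1000 counts, a class that holds all 9 members, the shares at the 25% threshold were 5.84% higher and 8.27% lower. At 2-fold only 1 gene of that class was called higher and 61 lower, so 0 members called at 2-fold does not set them apart. With no fold threshold, 5 members were called higher (Ezh2, Suz12, Rbbp4, Rbbp7 and Bmi1) and 2 lower (Ezh1 and Jarid2). That rule called 24.2% of all genes higher and 23.8% lower, and 35.2% and 30.1% of the genes with a mean of at least 1000 counts, so most genes of this level passed it as well. The members' median log2 change was 0.09, against -0.003 for all genes tested.

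**Figure D1:**
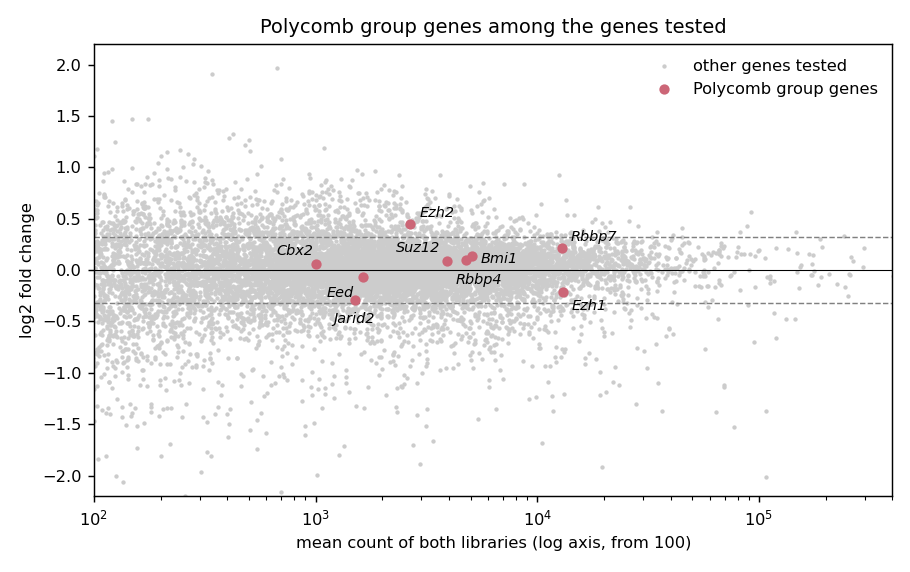
Log2 fold change (MALAT1-knockdown over control cells) against the mean count of both libraries on a log axis for 12123 of the 17356 genes tested, with the 9 Polycomb members in red; genes with a mean under 100 counts or beyond the vertical range are not drawn. Dashed lines mark 25% higher and 20% lower, and only Ezh2, at 0.45, lies outside them among the members.

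The catalytic subunits moved apart. Ezh2 (chromosome 6, 47530139 to 47595341, minus strand, in GENCODE M21 on GRCm38) had 2169 counts (37.6 CPM) in control cells against 3184 counts (51.2 CPM) in MALAT1-knockdown cells. It was higher in the MALAT1-knockdown library by 36.3%, a log2 change of 0.45 (95% interval 0.37 to 0.53; exact binomial test, adjusted p = 5.71e-28). The call was lost in the exact test of edgeR at a preset biological coefficient of variation of 0.1, a spread that 1 library a group cannot measure (adjusted p = 0.24), and the other 8 members had adjusted p from 0.618 to 1 in that test. Its log2 change exceeded the log2 change of 97.3% of the 8251 genes with a mean of at least 1000 counts. Ezh1, the other enzyme (chromosome 11, 101191115 to 101226463, minus strand), had 13573 counts (235 CPM) in control cells against 12565 counts (202 CPM) in MALAT1-knockdown cells. It was lower in the MALAT1-knockdown library, with a log2 change of -0.22 (95% interval -0.25 to -0.18; exact binomial test, adjusted p = 5.56e-33), and did not reach the 25% threshold. Per length of exon, Ezh1 was still the more abundant of the pair in both libraries, at 31.6 CPM per kb in control cells and at 27.2 CPM per kb with MALAT1 low, while Ezh2 was at 5.63 and 7.67 CPM per kb.

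The ratio of Ezh2 to Ezh1 within a library does not depend on the scaling of the libraries. Its test still covers counting error only, and no ratio was tested with a preset biological coefficient of variation. Ezh2 made up 13.8% of the reads on both genes in control cells (exact binomial 95% interval 13.2 to 14.3%) and 20.2% in MALAT1-knockdown cells (19.6 to 20.9%). The log2 difference of the ratio was 0.67 (95% interval 0.58 to 0.75; Fisher's exact test, two-sided, adjusted p = 1.03e-51 over 5 ratios). Ezh2 was also higher against its scaffold partners: its ratio to the sum of Eed and Suz12 was 0.413 in control cells against 0.547 in MALAT1-knockdown cells, a log2 difference of 0.41 (95% interval 0.31 to 0.50). Of the proliferation genes, 22 of 26 were called higher at the 25% threshold, against 8.84% of all genes tested. Their median log2 change was 0.63. Mki67, a marker of dividing cells, had 9930 and 17134 counts, a log2 change of 0.68. Ezh2 lay below that median, and 20 of the 26 proliferation genes had a larger log2 change than Ezh2. The list was chosen with earlier results of these data known, and a link of Ezh2 to proliferation was not tested.

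The scaffold subunits differed less. Suz12 (chromosome 11, 79993106 to 80034123, plus strand) had 3650 counts (63.3 CPM) in control cells against 4174 counts (67.2 CPM) in MALAT1-knockdown cells, a log2 change of 0.09 (95% interval 0.02 to 0.15; exact binomial test, adjusted p = 0.0191). Eed (chromosome 7, 89954654 to 89980983, minus strand), whose protein binds the methyl mark, had 1608 counts (27.9 CPM) and 1651 counts (26.6 CPM). Its log2 change of -0.07 had a 95% interval from -0.17 to 0.03, so no difference in Eed was detectable at this depth.

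Both histone-binding subunits were slightly higher in MALAT1-knockdown cells. Rbbp7 (chromosome X, 162760402 to 162779092, plus strand) was the most abundant member per length, and it had 11506 counts (199 CPM) in control cells against 14354 counts (231 CPM) in MALAT1-knockdown cells. Its log2 change was 0.21 (95% interval 0.18 to 0.25; exact binomial test, adjusted p = 7.29e-31). Rbbp4 (chromosome 4, 129307100 to 129335370, minus strand) had 4436 counts (76.9 CPM) and 5101 counts (82.1 CPM), a log2 change of 0.09 (95% interval 0.04 to 0.15; exact binomial test, adjusted p = 0.00389). The ratio of Rbbp4 to Rbbp7 was 0.386 in control cells against 0.355 in MALAT1-knockdown cells, a log2 difference of -0.12 (95% interval -0.19 to -0.05; Fisher's exact test, adjusted p = 0.000896), and with counts divided by 4 it no longer passed (adjusted p = 0.115). The exons of Rbbp7 overlap those of Txlng on the other strand (3432 and 2690 counts), and those of Rbbp4 overlap Sync (178 and 243 counts). Exons of Ezh2, Suz12 and Rbbp4 also overlap lincRNAs on the other strand (Gm26625, Gm26563 and Gm26722). These were not found by symbol among the genes counted. Exons of Eed overlap E230029C05Rik, which had 0 counts in both libraries. The library kit kept strand, but whether the counting used it is not given in the sources used here. A processed pseudogene of Rbbp7, Gm6382, is 97.1% identical over 942 bases and had 49 and 62 counts.

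Jarid2 was the member with the lowest log2 change. Its gene (chromosome 13, 44729474 to 44921643, plus strand) had 1608 counts (27.9 CPM) in control cells against 1416 counts (22.8 CPM) in MALAT1-knockdown cells. The log2 change was -0.29 (95% interval -0.39 to -0.19; exact binomial test, adjusted p = 1.97e-07), 81.8% of the control level, which did not reach the 25% threshold. Against the sum of Eed and Suz12 its ratio was 0.306 in control cells against 0.243 in MALAT1-knockdown cells, a log2 difference of -0.33 (95% interval -0.45 to -0.21; Fisher's exact test, adjusted p = 3.90e-08). Other PRC2 accessory subunits, which help to place the complex on chromatin, were tested beside it. Of these 5, 1 was called higher and 0 lower at the 25% threshold, and 2 higher and 0 lower with no fold threshold, where 8.84% and 12.0%, and 24.2% and 23.8%, of all genes were called. The gene past 25% was Phf19, with 75 counts in control cells against 157 in MALAT1-knockdown cells, a log2 change of 0.95 with a wide interval of 0.55 to 1.38.

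**Figure D2:**
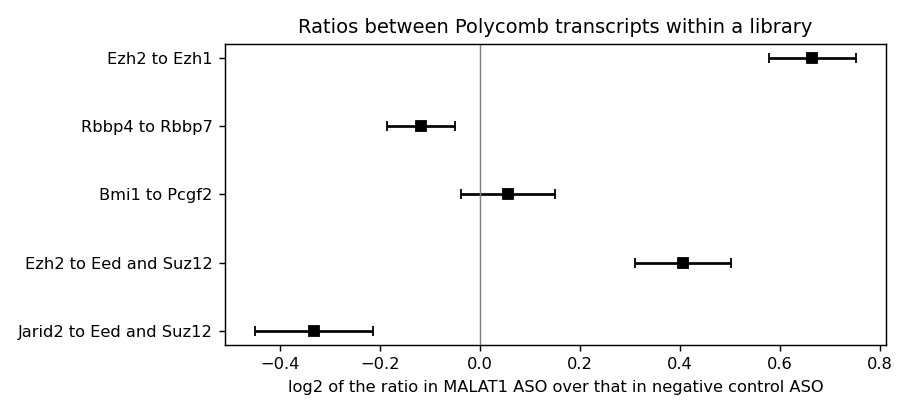
Log2 difference (MALAT1-knockdown minus control cells) of 5 ratios between Polycomb transcripts, each counted within 1 library per group; squares are estimates and bars exact 95% intervals of counting error. Ezh2 is higher against Ezh1 (0.67) and against Eed and Suz12 (0.41), Jarid2 is lower (-0.33), and the interval of the Bmi1 ratio includes 0.

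The PRC1 members stayed close to their control levels. Bmi1 (chromosome 2, 18677018 to 18686629, plus strand), whose protein stimulates the ubiquitin ligase of PRC1 and is known for silencing Cdkn2a, had 4644 counts (80.5 CPM) in control cells against 5498 counts (88.5 CPM) in MALAT1-knockdown cells. The log2 change was 0.14 (95% interval 0.08 to 0.19; exact binomial test, adjusted p = 8.58e-06). A processed transcript that resembles Bmi1, Gm5946, is 97.0% identical over 2658 bases and had 0 counts in both libraries. Bmi1 made up 63.1% of the reads on Bmi1 and its paralogue Pcgf2 in control cells against 64.0% in MALAT1-knockdown cells, and this ratio did not differ beyond counting error (log2 difference 0.06, 95% interval -0.04 to 0.15).

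Cbx2 (chromosome 11, 119022962 to 119031270, plus strand), a reader of the PRC2 mark that compacts chromatin, had 952 counts (16.5 CPM) in control cells against 1065 counts (17.1 CPM) in MALAT1-knockdown cells. Its log2 change of 0.06 had a 95% interval from -0.07 to 0.18. Among the other CBX readers tested, Cbx6 had 11587 and 14818 counts and a log2 change of 0.25 (95% interval 0.21 to 0.28), under the 25% threshold. Cbx7 (731 and 701 counts) and Cbx8 (798 and 890 counts) did not pass the test at any fold.

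**Figure D3:**
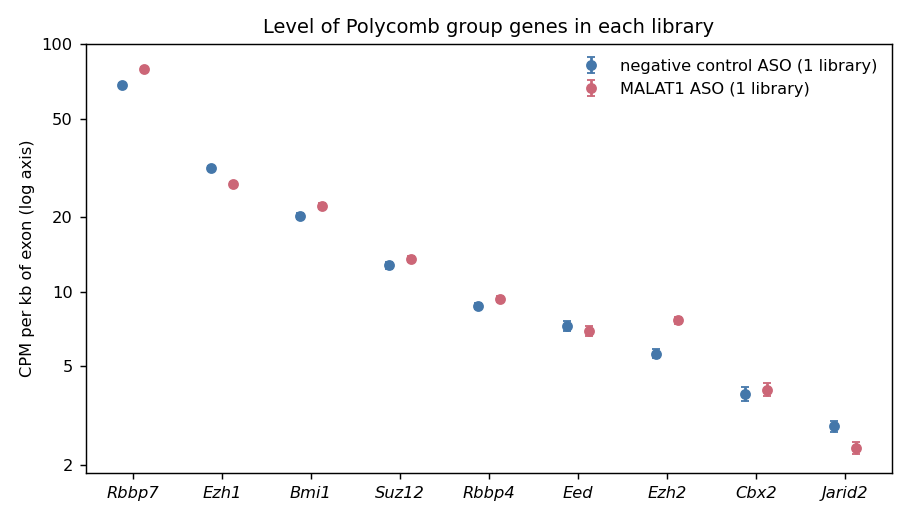
Level of each Polycomb member in CPM per kb of exon, on a log axis, in the control library (blue) and the MALAT1-knockdown library (red), ordered by the control level; bars are exact Poisson 95% intervals of counting error. Rbbp7 is highest and Jarid2 lowest in both libraries, and Ezh2 and Eed change places.

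The members spanned a wide range of levels. Per length of exon, in the union of GENCODE M21 exons, Rbbp7 was highest at 68.5 CPM per kb in control cells and Jarid2 lowest at 2.87 CPM per kb. Between them came Ezh1, Bmi1 (20.3), Suz12 (12.8), Rbbp4 (8.79), Eed (7.28), Ezh2 and Cbx2 (3.88). No neighbours in this order had overlapping counting intervals in either library. The order was the same in MALAT1-knockdown cells except that Ezh2, at 7.67 CPM per kb, came before Eed, at 6.94 CPM per kb. The authors' gene models are not known here, so the lengths are approximate.

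Beyond the members, 42 of 43 other Polycomb subunits were tested. At the 25% threshold, 2 were called higher (Phf19 and Scml2) and 1 lower (Pcgf5), against 8.84% and 12.0% of all genes tested. Among genes with a mean of at least 1000 counts, as most of these subunits have, the shares were 5.84% and 8.27%. The median log2 change of the 42 subunits was 0.02. Scml2, a PRC1-associated protein, had 213 counts in control cells against 333 in MALAT1-knockdown cells, a log2 change of 0.54. Pcgf5, which belongs to a variant form of PRC1, had 1258 and 1072 counts, a log2 change of -0.34 that was under the line with library totals in place of TMM. Of the 11 subunits of PR-DUB, the complex that removes ubiquitin from H2A, 0 were called at the 25% threshold in either direction. The 8 genes for demethylases of the PRC2 mark and their COMPASS-like partners also had 0 called, and their log2 changes ran from -0.14 to 0.14.

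The subunit without a test was Ring1, one of the ubiquitin ligases of PRC1, which had only 2 counts in control cells against 6 in MALAT1-knockdown cells. Its paralogue Rnf2 had 3370 and 3840 counts. Genes near Ring1 on chromosome 17 in the RefSeq order were low as well, also ones that every cell uses: Rps18, a ribosomal protein gene, had 3 counts in each library, Slc39a7 2 and 0 counts, and Pfdn6 2 counts in each, although H2-K1 had 430 and 633 counts. The level of Ring1 is therefore not read from this table.

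**Figure D4:**
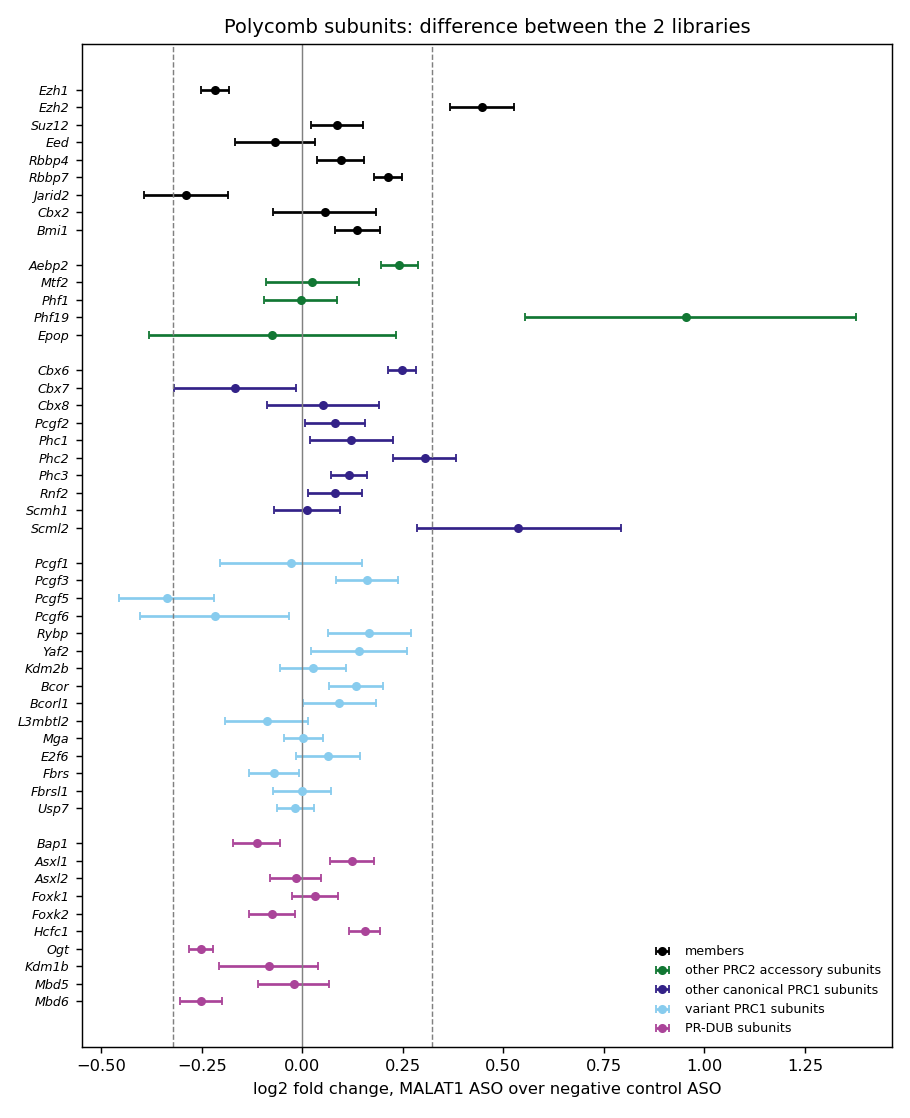
Log2 fold change (MALAT1-knockdown over control cells, 1 library each) of the 9 members in black and of the other Polycomb subunits whose counts together reached 100, by complex; bars are exact 95% intervals of counting error and dashed lines mark 25% higher and 20% lower. Most subunits lie within the dashed lines, with Ezh2, Phf19 and Scml2 to the right and Pcgf5 to the left.

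Genes known as Polycomb targets were examined beside the subunits. Of 39 Hox genes, 11 had enough counts to be tested, and 9 of these were in the HoxA cluster. HoxA genes summed to 103 CPM in control cells and 114 CPM in MALAT1-knockdown cells, while the HoxB genes held 0 and 3 counts and the HoxD genes 1 and 0 counts. At the 25% threshold 3 Hox genes were called higher and 1 lower, against 8.84% and 12.0% of all genes tested, and 1 of them, Hoxa9, was called higher at 2-fold, against 2.18% of all genes. Hoxa9 had only 16 counts in control cells against 46 in MALAT1-knockdown cells, a log2 change of 1.39 (95% interval 0.57 to 2.34). Hoxa10 had 322 and 468 counts, a log2 change of 0.43, and Hoxa6 125 and 186 counts, one of 0.46. Hoxc13 went the other way, with 172 and 133 counts and a log2 change of -0.48. The median over the 11 genes was 0.18.

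Of 40 other target genes, 20 were tested, 5 were called higher at the 25% threshold and 0 lower, against 8.84% and 12.0% of all genes tested, and the median log2 change was 0.05. The Wnt genes named above as targets of EZH2 were hardly detected: Wnt10b had 26 counts in control cells against 40 in MALAT1-knockdown cells, Wnt6 1 and 3 counts, and Wnt1 and Wnt10a 0 counts in both libraries. Cdkn2a, the cell cycle inhibitor silenced by Polycomb complexes, had 33 and 32 counts, and Cdkn2b 12 and 7 counts, so neither differed detectably at this depth. Of the called genes, Lhx2, a homeobox gene, passed 2-fold with 120 and 267 counts and a log2 change of 1.04 (95% interval 0.73 to 1.37). Gata3 had 124 and 211 counts, Six2 654 and 954 counts and Pax9 1644 and 2257 counts, with log2 changes of 0.66, 0.44 and 0.35, and Tbx3 454 and 614 counts, with one of 0.33. All of these encode developmental transcription factors, as do most genes of the list, so this trait does not set the called genes apart. Histone marks were not measured in these libraries.

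**Figure D5:**
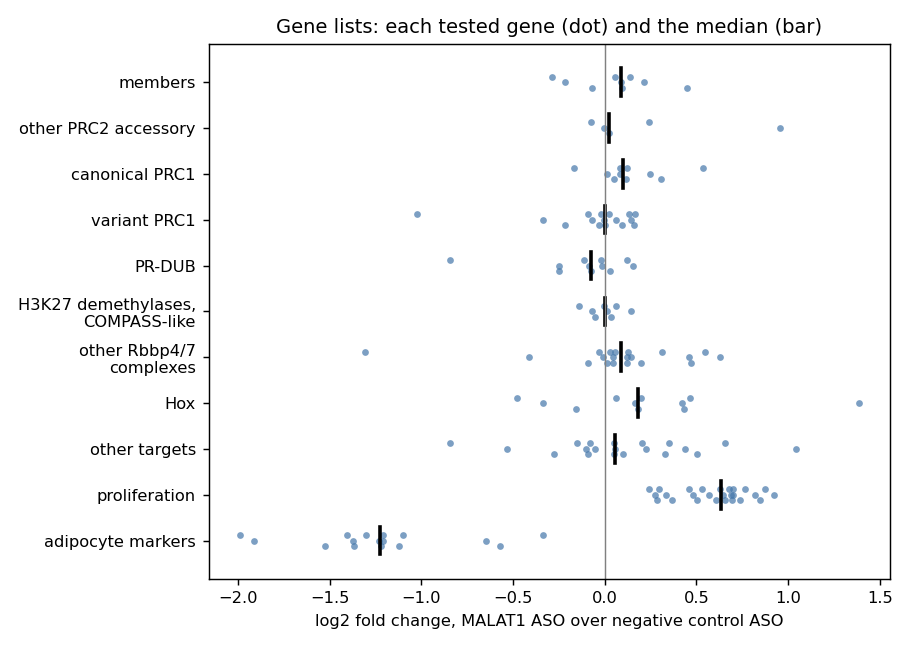
Log2 fold change (MALAT1-knockdown over control cells) of every tested gene in each list, 1 dot per gene, with the list's median as a black bar. The Polycomb lists lie around 0 (members 0.09), the proliferation genes lie to the right (0.63) and the adipocyte markers to the left (-1.23).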

How the data were processed

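RNA-seq of 1 MALAT1-knockdown and 1 control library was analysed. Libraries were made from rRNA-depleted total RNA with a directional kit. The authors deposited raw counts of reads per gene symbol. The submitters' processing notes name HISAT2 and GRCm38; the counting tool, annotation, strand setting and handling of multiply mapped reads are not given in the sources used here. Of 46095 genes, 17356 were tested, those whose counts in both libraries together reached 10.

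Library sizes were scaled by TMM (edgeR 4.0.16, R 4.3.3). Log2 fold changes used a prior count of 0.5. Without replicates, each gene was tested by a two-sided exact binomial test (scipy 1.17.1) with Benjamini-Hochberg adjustment over all genes tested, and 95% Clopper-Pearson intervals were computed. Subunit ratios were compared by Fisher's exact test with conditional intervals. The tests were checked on simulated data drawn with counting error only, so that check says nothing on spread between cultures. Near-identical copies were sought with BLAST 2.17.0 among GENCODE M21 transcripts (at least 95% identity over 200 bases). Epop was matched by its older symbol. Named genes were the members, Malat1, the paralogues Cbx6, Cbx7, Cbx8 and Pcgf2, and genes of each list called at 2-fold or ranked among the first 3 at the 25% threshold by the interval's distance from 0, although not all are reported, and 1 gene and a ratio that needs it are not reported here; other genes in the text were chosen after their values were seen. The members and the 12 other lists were chosen with earlier results of these data known. Alternatives were other scalings (library totals, DESeq2 1.42.0 size factors, upper quartile), filters, a prior of 2 counts, a preset coefficient of variation in the exact test of edgeR, counts divided by 4 and other fold thresholds. The preset coefficient of variation, the counts divided by 4 and the 1.5-fold threshold were not applied to the 12 other lists, so calls in those lists have no such check.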

Additional observations from a re-analysis of the deposited data

How the results depend on the processing

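The log2 change of Ezh2 ranged from 0.45 to 0.47, and no member changed sign, although filters and thresholds do not alter these values and scalings shift all genes alike. The thresholds of 2-fold and of no fold were added after the data were seen. Without a fold threshold, 24.2% of all genes tested were called higher and 23.8% lower. For genes averaging at least 1000 counts, as all 9 members do, the shares were 35.2% and 30.1%. The number of members called higher, 1 at the 25% threshold, was 5 under that loose rule, which also called 2 lower. This number was 0 at 1.5-fold and 0 at 2-fold. It was 0 with edgeR's exact test at a preset biological coefficient of variation of 0.1 (Ezh2 adjusted p = 0.24, and from 9.38e-31 to 1 over all alternatives), 0 at 0.2 and 0 at 0.4, settings that stand in for spread between cultures that 1 library a group does not measure. With counts divided by 4 the log2 difference of Rbbp4 to Rbbp7 was -0.12 and no longer passed. With library totals the number of called variant PRC1 genes was 0 in place of 1, and that of other canonical PRC1 genes 2 in place of 1. The median log2 change of all genes ran from -0.003 to 0.02 over the 4 scalings. With library totals, other list counts also shifted by 1 gene: other complexes of Rbbp4 or Rbbp7 had 7 called in place of 6, adipocyte markers 15 in place of 16 and preadipocyte markers 5 in place of 4, the last also with upper-quartile factors. No paired analysis was possible because each group has 1 library.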

Other observations

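RBBP4 and RBBP7 also belong to complexes other than PRC2, and 20 genes of those complexes were tested. At the 25% threshold, 4 were called higher in MALAT1-knockdown cells and 2 lower, against 8.84% and 12.0% of all genes tested, and the median log2 change was 0.09. The higher genes include both large subunits of CAF-1, which loads histones onto newly made DNA: Chaf1a had 2008 counts in control cells against 3159 in MALAT1-knockdown cells, a log2 change of 0.55 (95% interval 0.47 to 0.63), and Chaf1b had 702 and 1171 counts, one of 0.63 (0.50 to 0.77). Hat1, a histone acetyltransferase that works with RBBP7, had 2168 and 3229 counts, a log2 change of 0.47, and Lin54, of the DREAM complex, 744 and 1100 counts, one of 0.46. The genes called lower were Lin52, also of the DREAM complex, with 916 and 741 counts (log2 change -0.41), and Mta1, with only 42 and 18 counts. Lin9 and Lin37, of DREAM as well, were not called, with log2 changes of 0.13 (95% interval -0.05 to 0.30) and -0.09 (-0.26 to 0.08). The listed genes of this complex thus had log2 changes of both signs. Of the NuRD chromatin remodellers, Chd3 had 18696 and 24993 counts and a log2 change of 0.31, just under the threshold, and Chd4 29932 and 35013 counts and one of 0.12. The proliferation genes were higher in the same library, and their part in these differences was not tested.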
